A study of Danio rerio with 14 samples.

Results

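Noncanonical Wnt signalling polarises cells without acting through beta-catenin, and in the vertebrate gastrula it drives convergence and extension, the movements that narrow the body axis from side to side and lengthen it from head to tail. A Wnt ligand binds Frizzled receptors with the help of Ror receptors and a glypican coreceptor, Dishevelled relays the signal in the cell, and the core polarity proteins Vangl and Prickle gather on the membrane opposite to Frizzled and Dishevelled. In zebrafish, mutants of wnt5b (pipetail), gpc4 (knypek) and vangl2 (trilobite) have short, broad bodies because these movements fail.

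Described here are 9 genes of this pathway, taken from the array annotation by symbol: wnt5b, gpc4, ror2, fzd7a, fzd7b, vangl2, prickle1a, prickle1b and dvl2. They are among the 8793 genes that a probe set of 1 symbol measures, and 10 such probe sets measure them, 2 of them for fzd7b. Another probe set carries fzd7b together with cdk15 and nop58, was below a signal of 200 on every array and was left out.

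RNA of 14 pools, each of about 20 whole embryos of the TL strain, was read at 8 hpf (hours after fertilization) on Affymetrix arrays of the zebrafish genome. The 7 ethanol treated pools had been in embryo medium with 100 mM (0.6%) ethanol since 2 hpf, for 6 h, and the 7 control pools were left untreated. A control and an ethanol treated pool of each of 7 embryo batches (1 to 6 and 8) make a pair. Per the methods, the embryos of an experiment came from 1 breeding pair of fish, which is perhaps why batches differed. The labels give the age in hours and no stage, and a signal is an average over embryonic and extraembryonic tissue. In such pools, fewer cells of a type and less RNA per cell cannot be told apart. The paper reports slowed epiboly (the spreading of cells over the yolk) in ethanol treated embryos. Pools of the same age may therefore differ in developmental progress, and its part in the differences below was not tested.

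Values are MAS5 signals, linear array intensities that had been brought to a common target. They compare pools for 1 probe set and do not rank genes against each other. Testing was limited to the 9240 of 15502 probe sets with signals of 200 or more on 3 or more of a group's 7 arrays. Differences of log2 signal, ethanol minus control, were fitted in limma with batch in the model and are given with their standard error (SE). Changes with an adjusted p (Benjamini-Hochberg, over all tested probe sets) of 0.10 or less were called. Precision is limited by how many arrays there were. Of the 9 genes, 8 were tested, and all 9 of their probe sets reached a signal of 200 on all 14 arrays.

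By the reported fit, ethanol treated embryos had less wnt5b transcript, a close call that held under 7 of 20 alternatives. None of the other 7 tested genes passed the test in either direction. Of all probe sets tested 4.36% were called, 2.00% lower and 2.36% higher, so 1 call among 8 genes is no result about the group. Over the 8 genes the median log2 fold change was -0.00372, with 4 above 0 and 4 below, beside a median of -0.00139 over all probe sets tested. Counted by gene, as for the 8, 277 of all 6016 genes tested were called and their median was 0.00339 over all 6016. At an unadjusted p of up to 0.05, where 15.0% of probe sets stood, wnt5b was again the only one of the 8.

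The ligand gene wnt5b was read by 1 probe set. In the control pools of batches 1, 2, 3, 4, 5, 6 and 8 its signal was 730.1, 1057, 835, 738, 1057, 1411 and 786. In the ethanol treated pools of the same batches it was 678, 941, 577, 601, 777, 888 and 492. Every ethanol treated pool was below its own control pool, while the groups overlapped. Of the ethanol treated pools 4 were below the lowest control pool, and 3 control pools were above the highest ethanol treated pool.

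The mean wnt5b signal was 945 ± 248 (SD, n = 7) in control embryos and 708 ± 167 (SD, n = 7) in ethanol treated embryos. The log2 fold change was -0.41 (SE 0.12, 95% interval -0.67 to -0.16, adjusted p = 0.0808, limma), or 75.1% of the control level with an interval of 63.0% to 89.5%. Within pairs, the level with ethanol ran from 62.6% of the control in batch 8 to 92.8% in batch 1. A fall in all 7 pairs was shared by 2.97% of the probe sets tested. An exact permutation test that flips the signs of the 7 pair differences (two-sided) gave p = 0.0156, the smallest it can give.

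The wnt5b call was a close one. Leaving out 1 pair at a time, the log2 fold change stayed between -0.46 and -0.37, and the adjusted p missed 0.10 without batch 3 (0.154), batch 4 (0.123), batch 5 (0.158), batch 6 (0.197) or batch 8 (0.22), and passed without batch 1 (0.0555) or batch 2 (0.0896). It was 0.57 with no batch block, 0.174 with batch as a random effect, 0.148 without the mean-variance trend, 0.161 with no moderation of the variances, 0.204 with median centring, and 0.123 and 0.129 with a signal minimum of 100 and with none.

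**Figure D1:**
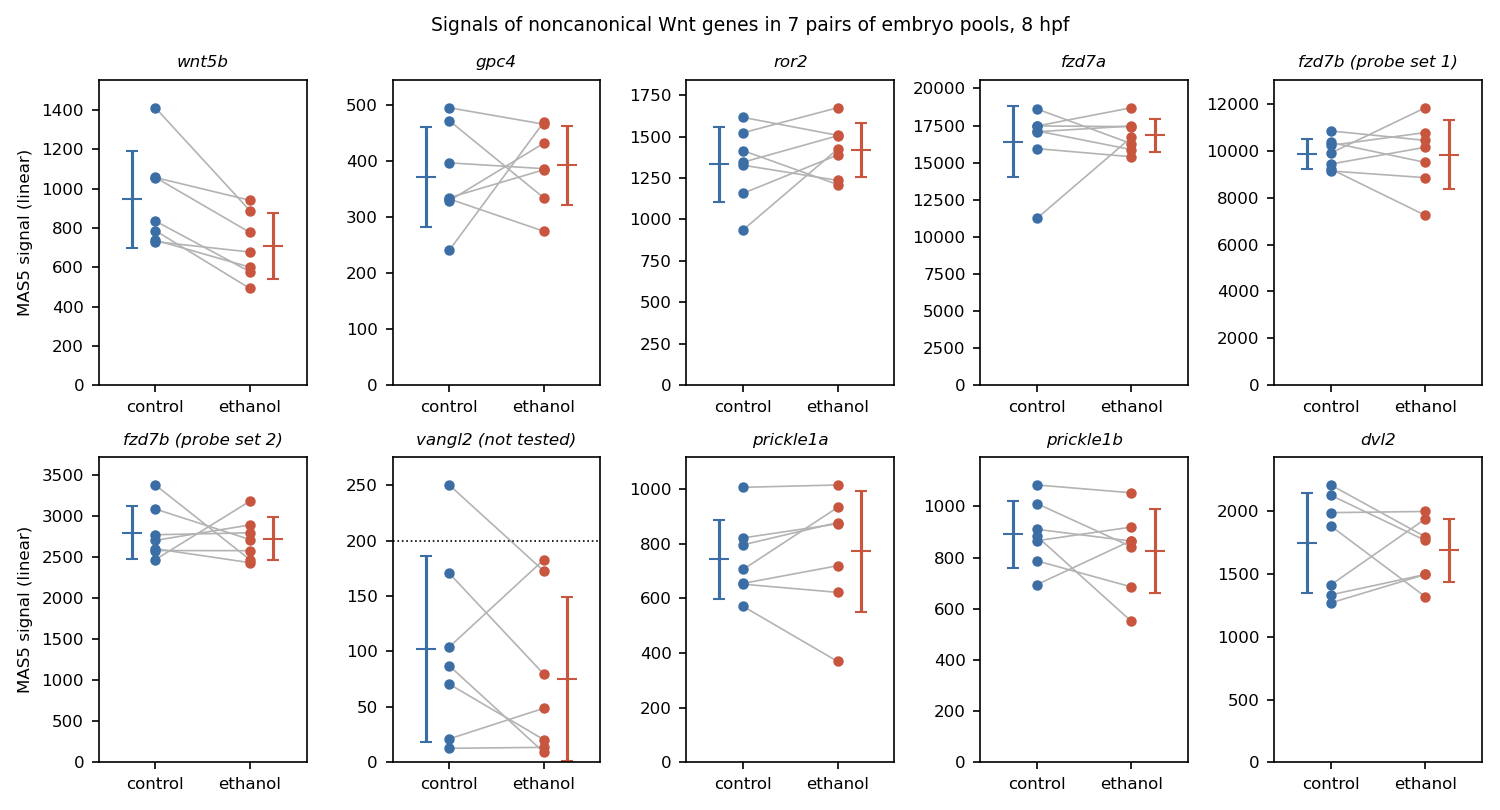
MAS5 signal (linear axis from 0) of each of the 10 probe sets in control pools (blue) and ethanol treated pools (red). Grey lines join the 2 pools of a batch, and the bars beside the points are mean ± SD (n = 7); probe sets 1 and 2 of fzd7b end in S2_at and S1_at. All 7 lines of wnt5b go down, from a mean of 945 to 708, those of the other genes go both ways, and vangl2 lies mostly under the dotted line at 200.

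The coreceptor gene gpc4 encodes a glypican, a membrane proteoglycan that aids reception of the ligand. Its signal was 240.2 at the lowest, 334 at the median and 494 at the highest in control pools, and 274, 386 and 469 in ethanol treated pools. The groups overlapped, and the level was lower in 4 pairs and higher in 3. The log2 fold change was 0.09 (SE 0.19, 95% interval -0.31 to 0.50, adjusted p = 0.873). This was the widest interval of the 8 tested genes, with pair differences from -0.50 in batch 1 to 0.96 in batch 2. The value was -0.051 without batch 2.

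The gene ror2 encodes a receptor tyrosine kinase of the Ror family, which binds Wnt5 ligands. Its signal in control pools was 937 at the lowest, 1345 at the median and 1616 at the highest, and in ethanol treated pools it was 1210.5, 1424 and 1674. Only 1 ethanol treated pool was above the control range. The log2 fold change was 0.11 (SE 0.11, 95% interval -0.13 to 0.34, adjusted p = 0.714), higher in 4 of 7 pairs, and the pair of batch 1 differed most, by 0.60. The value was 0.022 without batch 1.

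The Frizzled genes fzd7a and fzd7b encode closely related receptors that act together in convergence and extension. The fzd7a signal was 16425 ± 2415 (SD, n = 7) in control embryos and 16837 ± 1122 (SD, n = 7) in ethanol treated embryos. It lay between 15397 and 18701 in all ethanol treated pools and between 15945 and 18619 in 6 control pools, and was 11247 in the control pool of batch 5. The log2 fold change was 0.05 (SE 0.08, 95% interval -0.12 to 0.22, adjusted p = 0.834), lower in 4 of 7 pairs, and -0.038 without batch 5. Only 8.19% of the probe sets tested had a smaller SE.

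Of the 2 probe sets of fzd7b, the one ending in S2_at had a signal of 9884 ± 641 (SD, n = 7) in control embryos and 9839 ± 1482 (SD, n = 7) in ethanol treated embryos. Its log2 fold change was -0.02 (SE 0.08, 95% interval -0.18 to 0.14, adjusted p = 0.94). The other, ending in S1_at, had 2797 ± 322 (SD, n = 7) and 2721 ± 262 (SD, n = 7), with a log2 fold change of -0.04 (SE 0.10, 95% interval -0.24 to 0.16, adjusted p = 0.902). Both were lower in 4 of 7 pairs: they shared batches 1, 3 and 6, and differed in sign in batches 2 and 8. In batch 2 the pair difference was -0.35 on the former and 0.37 on the latter, and in batch 8 it was 0.11 and -0.10. The intervals of the 3 Frizzled probe sets ran from -0.24 to 0.22.

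The core polarity gene vangl2 encodes a membrane protein of the polarity complex. Its probe set reached a signal of 200 in 1 of the 14 pools, the control pool of batch 1 at 250.0, and it was not tested. With that pool included, the lowest, median and highest signals were 12.7, 87.1 and 250.0 in control pools and 9.21, 48.8 and 183 in ethanol treated pools. Without the signal minimum the log2 fold change was -0.65 (SE 0.70, adjusted p = 0.815, limma), lower in 4 of 7 pairs, with pair differences from -3.24 to 1.20. A difference in vangl2 was not detectable with these signals.

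The genes prickle1a and prickle1b encode cytoplasmic partners of Vangl proteins with LIM domains. The prickle1a signal was 571 at the lowest, 706 at the median and 1006 at the highest in control pools, and 369, 873 and 1015 in ethanol treated pools. Its log2 fold change was 0.01 (SE 0.13, 95% interval -0.27 to 0.29, adjusted p = 0.979), higher in 5 of 7 pairs. The prickle1b signal was 694, 883 and 1083 in control pools and 551, 864 and 1053 in ethanol treated pools, with a log2 fold change of -0.12 (SE 0.13, 95% interval -0.39 to 0.14, adjusted p = 0.711), lower in 5 of 7 pairs. The ethanol treated pool of batch 4 was the lowest of all 14 for both genes, and the pair of that batch differed by -0.63 for prickle1a and -0.68 for prickle1b. Without batch 4 the value of prickle1b was -0.029.

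The gene dvl2 encodes a Dishevelled protein, which relays signals of both Wnt branches. Its signal in control pools was 1270.1 at the lowest, 1882 at the median and 2208 at the highest, and in ethanol treated pools it was 1319, 1767 and 1998. The log2 fold change was -0.03 (SE 0.11, 95% interval -0.27 to 0.21, adjusted p = 0.935), lower in 3 of 7 pairs, with pair differences from -0.51 in batch 1 to 0.46 in batch 3. All ethanol treated pools were within the range of the control pools.

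Besides wnt5b, no tested probe set of these genes moved 1 way in all 7 pairs, as 6.11% of all tested probe sets did. The groups overlapped for every tested probe set of these genes, wnt5b included, while for 0.357% of all tested probe sets they did not. For the 8 probe sets other than that of wnt5b the exact sign-flip permutation test gave p values from 0.406 to 0.906. Whether the change of wnt5b differed from that of the other genes was not tested.

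**Figure D2:**
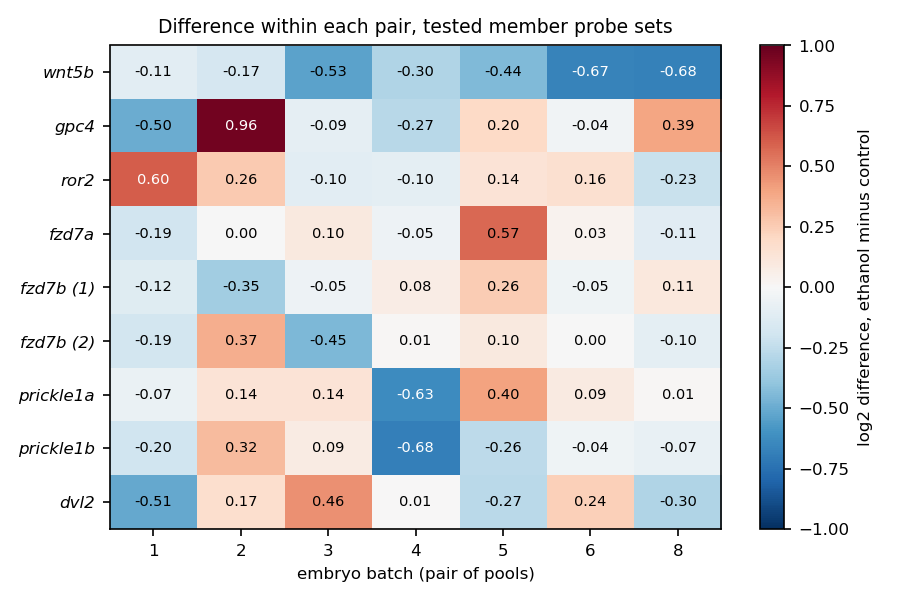
Log2 difference between the ethanol treated and the control pool (colour and number in each cell) for the 9 tested probe sets (rows) in the 7 embryo batches (columns). fzd7b (1) is the probe set ending in S2_at and fzd7b (2) the one ending in S1_at. The wnt5b row is negative throughout, from -0.11 to -0.68, and every other row holds both signs, with 0.96 for gpc4 in batch 2 the largest cell.

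The number of genes that were lower with ethanol differed between batches. Of the 8 tested genes 7 were lower with ethanol in batch 1 and 6 in batch 4, but 3 in batch 2 and in batch 5. Of all tested probe sets 51.2% were lower in batch 1, 48.7% in batch 4, 46.6% in batch 2 and 53.0% in batch 5. The median difference over the 8 genes lay between -0.19 in batch 4 and 0.17 in batch 5. Over all tested probe sets the median stayed between -0.03 and 0.04 in every batch. A median of 8 values scatters more than one of 9240 by its size alone, so these spreads are no result about the group.

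Signals were also compared between embryo batches. By a moderated F test over batches, which 22.3% of all tested probe sets passed, 2 of the 9 probe sets passed, which is no more than that background: wnt5b (adjusted p = 0.0485, limma) and prickle1a (adjusted p = 0.0411). For the other 7 the adjusted p lay between 0.224 and 0.915. For wnt5b, batches 2, 5 and 6 had the highest signals in both groups. For prickle1a, both pools of batch 4 were the lowest of their group, at 571 and 369, and both pools of batch 8 were the highest, at 1006 and 1015.

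**Figure D3:**
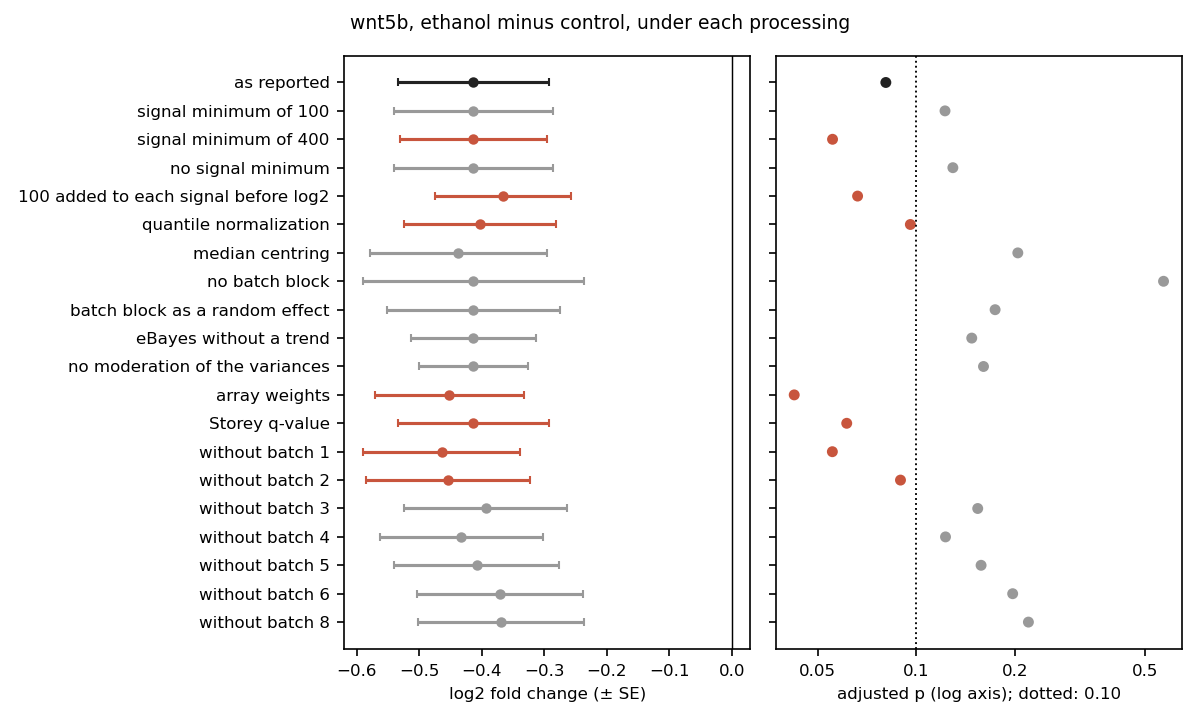
Left, log2 fold change of wnt5b (± SE) under the reported fit (black) and each alternative but the threshold of 0.05. That one has the values of the reported fit, is not drawn, and was not passed by wnt5b. Right, the adjusted p of wnt5b on a log axis, with the threshold of 0.10 dotted. Alternatives that pass the threshold are red and those that do not are grey. The change stays between -0.46 and -0.37 while the adjusted p runs from 0.0424 with array weights to 0.57 with no batch block.

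Around these genes stand 46 others listed for the pathway: further ligands, receptors and core polarity genes, Dishevelled genes and their partners, and other Frizzled genes. For 26 of them no probe set of 1 symbol was at hand, 8 were below the signal minimum and 12 were tested. The other ligands could not be compared: wnt11, wnt4 and wnt4b were below the minimum, and wnt11f2 (silberblick) and wnt5a were not analysed here. None of the 12 passed the test (limma), which 4.36% of all tested probe sets passed, and none did with no moderation of the variances. At an unadjusted p of up to 0.05 there were 2 of the 12, beside 15.0% of all tested probe sets, which is no result about the list. Their median log2 fold change was -0.06, with 8 below 0 and 4 above.

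The receptors and core polarity genes of this list were fzd2, ryk, celsr1a and prickle2b, and the last had the largest value of them (-0.24, SE 0.19, adjusted p = 0.607). The 4 Dishevelled genes and partners lay between -0.18 for dact2 (SE 0.12, adjusted p = 0.518), a regulator of Dishevelled, and 0.02 for dvl3a.

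The largest changes were in other Frizzled genes. The gene fzd8b had a signal of 669 at the lowest, 1024 at the median and 1472 at the highest in control pools and 560.1, 886 and 1057 in ethanol treated pools (log2 fold change -0.36, SE 0.15, adjusted p = 0.235). It was lower in 6 of 7 pairs and passed the threshold only without batch 1 (-0.52, adjusted p = 0.0319, limma). Under the other alternatives its adjusted p ran from 0.123 with array weights to 0.656 with no batch block. The gene fzd10 had a signal of 667, 983 and 1460 in control pools and 518, 761 and 1329 in ethanol treated pools (-0.34, SE 0.12, adjusted p = 0.165), also lower in 6 of 7 pairs. On its other probe set, with lower signals, fzd10 was at 0.23 (SE 0.24, adjusted p = 0.714).

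**Figure D4:**
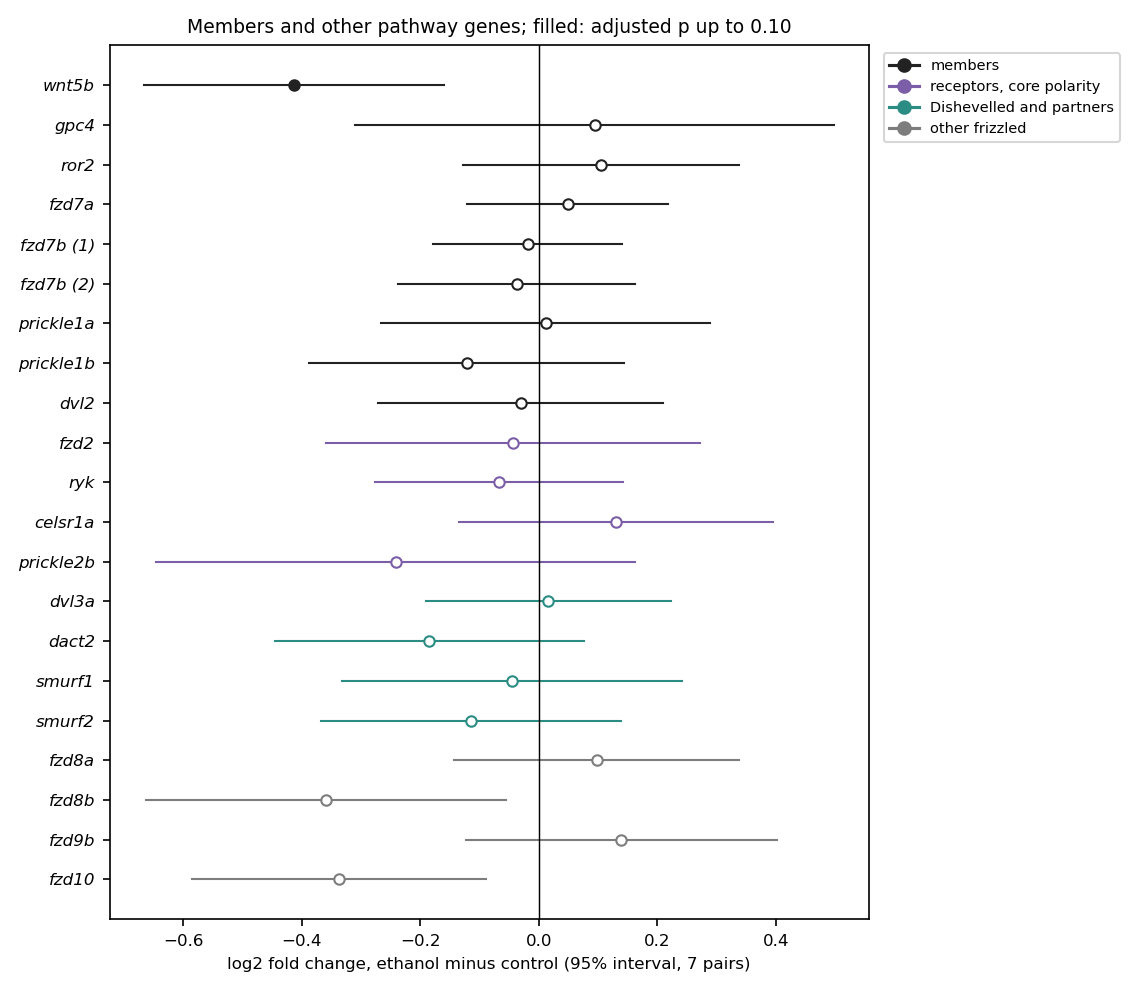
Log2 fold change, ethanol minus control, with its 95% interval over 7 pairs, for the 9 tested member probe sets (black) and the 12 other tested pathway genes (colours by role). Filled points passed an adjusted p of 0.10: wnt5b alone is filled, and the intervals of fzd8b and fzd10 also lie below 0 although these genes did not pass.

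Among genes of all kinds, those most like wnt5b over the 14 pools were plp2b (Pearson r of log2 signals 0.87), ect2, which acts in cell division (0.84), and ppp3r1b, a calcineurin subunit (0.83). Those most opposite were slc35e1 (-0.94), ipo9, an importin (-0.88), and slc38a2, an amino acid transporter (-0.84). The pools share batch and treatment differences, and these are the extremes of 6016 genes, so the coefficients describe likeness and nothing more. Of the 6, ect2 alone passed the test, by a close call (-0.49, SE 0.15, adjusted p = 0.096, limma), and ipo9 was next at 0.127.

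Markers of cell types differed in how they moved. Beside their counts stand the 4.36% of all tested probe sets that were called, 2.00% lower and 2.36% higher. By that share 1 call in a list of 6 is no result about the list. Of 10 genes of the marginal and ventrolateral mesoderm none passed the test, with the largest values for tbx6 (-0.47, SE 0.23), fgf8a (-0.35, SE 0.12, lower in 7 of 7 pairs) and vent (0.31, SE 0.25, and -0.38, SE 0.28, on its other probe set), and the summed signal of the 10 ran from 84549 to 110973 in control pools and from 89989 to 110112 in ethanol treated pools. The values of tbx6 and vent rest in part on signals under 200, down to 104 for tbx6 in an ethanol treated pool and 120 for vent in a control pool. Of 6 genes of the axial mesoderm shha fell, by a close call (-0.57, SE 0.17, adjusted p = 0.078, limma), beside gsc (0.22, SE 0.11) and foxa2 (-0.22, SE 0.10), with sums of 15055 to 18867 and 14658 to 18124. Whether the call of shha holds under the alternatives is not reported here. The paper reports no shh difference on these arrays. Its filter and its fit were others, and its main list also required cut-offs of fold change and P value. Calls here rest on the adjusted p alone. Why the 2 readings differ was not tested. Of 6 neuroectoderm genes sox19a rose (0.54, SE 0.12, adjusted p = 0.0226), beside otx2b (-0.23) and irx7 (-0.19), with sums of 34634 to 44166 and 34054 to 50193. None of 6 enveloping layer genes passed, with cldne (0.37), anxa1c (-0.24) and krt8 (0.19) the largest, and sums of 173997 to 193002 and 175294 to 222745, higher in 6 of 7 pairs. Of 9 yolk syncytial layer and yolk genes 7 fell. The largest values were those of apoba (-1.77), apoa4b.1 (-1.58, adjusted p = 0.0986, limma, a close call) and apobb.1 (-1.23). But the first 2 rest in part on signals far below 200, down to 4.82 and 6.35 in ethanol treated pools. The list had a summed signal of 125694 to 156977 in control pools and 102638 to 151913 in ethanol treated pools. That sum was lower in 7 of 7 pairs, but most of it came from apoeb and apoc1, which were not called. Their mean control signals were 77324.5 and 44038.4, with apoeb higher in 5 of 7 pairs and apoc1 lower in 6. In every list the sum is weighted to the genes of highest signal, so it does not measure a cell type. RNA quality was read from the GAPDH control probe sets at the 3' and 5' ends: the log2 ratio of 3' over 5' averaged 1.82 more under ethanol, with 6 of 7 pairs up (p = 0.0625, exact sign-flip permutation), while 16 of its 28 signals stayed under 200. For acta1 the ratio averaged 1.57 more, with 5 of 7 pairs up (p = 0.156, exact sign-flip permutation) and 22 of 28 signals under 200. Per the methods, a direct measure of RNA integrity was high for all samples. The part of any of these in the wnt5b result was not tested.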

How the data were processed

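The authors hybridised 1 Affymetrix Zebrafish Genome Array per pool, all in a single processing batch, and deposited MAS5 signals made in the Affymetrix expression console, that is, linear intensities brought to a target of 1000 on every array. In the deposited table the 2% trimmed mean lay between 1000.30 and 1000.32. Detection calls and probe level files were not used here.

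From 15617 probe sets 115 controls were left out. Of all, 10802 carry 1 symbol, 135 several and 4680 none. Symbols were brought up to date through gene identifiers with RefSeq names of assembly GRCz12tu. The values of the remaining 15502 probe sets were taken to log2. A fit in limma 3.58.1 (R 4.3.3) with fixed effects of treatment and batch and a trended eBayes step followed. The study's 2-way model had the same factors, with batch random, and its methods name no moderation of the variances. The alternative here with batch as a random effect is not that model, since it uses a correlation shared by all probe sets and moderates the variances. In a balanced pair design, fixed and random batch give the same treatment test, so the alternative with no moderation comes closest to the study's. Under it wnt5b did not pass (adjusted p = 0.161, limma fit with no moderation), and 45 probe sets were called. The study's filter and false discovery method were others. Where a gene had several tested probe sets, the one of highest mean signal stood for it. The pipeline was tested on simulated data, and figures were drawn with matplotlib 3.10.9.

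The replicate numbers in the sample titles pair the pools, and per the methods there were 7 independent experiments. Deviations from the group mean of same-numbered pools correlated at 0.11 to 0.38, and were most alike within the number for 6 of the 7. The exception was batch 1, which also had the lowest correlation, 0.11.

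The members and lists were chosen with earlier results of these data known. Genes were named by rule: every member, the 4 other pathway genes with the largest changes, the 3 most and 3 least like each member past the threshold, and the 3 largest changes of each marker list. A further list of pathway genes is not reported here. Other pathway genes given with values were named after these were seen. Alternatives were signal minimums of 100, 400 and none, 100 added before log2, quantile normalization, median centring, no batch block, batch as a random effect (statmod 1.5.0), array weights, no trend, no moderation, a threshold of 0.05, Storey's q-value, any probe set called, and each pair left out.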

Additional observations from a re-analysis of the deposited data

Results flagged for a closer look

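Each of the 9 tested probe sets was searched in each group for an array far from the other 6, which makes 18 groups of 7. Chance marks about 1 in 20 such groups, and 1 was found. The fzd7a signal of the control pool of batch 5 was 11247, below the next control pool at 15945, and the gap took up 0.637 of the range, above the critical value of Dixon's criterion at 95%. The log2 fold change of fzd7a was 0.05 with this pair and -0.038 without it, and it did not pass the test either way.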

How the results depend on the processing

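The call of wnt5b held under 7 of the 20 alternatives run on its value: a signal minimum of 400, 100 added before log2 (-0.37), quantile normalization, array weights (-0.45, adjusted p = 0.0424), Storey's q-value, and without batch 1 or batch 2. Storey's q-value as computed cannot exceed the adjusted p, and the threshold of 0.05 reuses it. The outcomes of these settings were therefore fixed by the reported fit and are no check of it. The count of member genes called, 1 in the reported fit, was 0 with a signal minimum of 100 or none, median centring, no batch block, batch as a random effect, no trend, no moderation or a threshold of 0.05, and ran from 0 to 1 with a pair left out. The cause was not tested. The count over all probe sets, 403, was 103 with median centring, 28 with no replicate block (25 higher and 3 lower), 177 with the block as a random effect, 43 without the trend, 45 with no moderation, 215 at a threshold of 0.05, and 209 to 483 with a pair left out. The count of other pathway genes called, 0, ran from 0 to 1 with a pair left out, through fzd8b.

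The sign of 5 other member genes, none of them called, turned with a pair left out, with ranges of -0.051 to 0.19 for gpc4, -0.038 to 0.090 for fzd7a, -0.065 to 0.036 for fzd7b on the probe set ending in S2_at and -0.10 to 0.032 on that ending in S1_at, -0.053 to 0.12 for prickle1a and -0.11 to 0.050 for dvl2. With median centring prickle1a was at -0.012. Of those that kept their sign, ror2 ran from 0.022 to 0.16 and prickle1b from -0.20 to -0.029. None of these settings brought any of them past the threshold. Signal over background limits vangl2, which 13 of 14 pools left below 200.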
